A study of Mus musculus with 6 samples.

Results

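Primitive endoderm is the extraembryonic lineage that forms from the inner cell mass of the blastocyst. Its 8 regulators described here are Gata6, Gata4, Sox17, Sox7, Pdgfra, Foxa2, Hnf4a and Otx2. They were taken by gene symbol from the 22485 genes named on the array, with every array feature (a row of the deposited table, holding the signal of a probe) that carries such a symbol. All 8 genes were found, on 19 features, and all 19 features passed the filter on dim features that left 24769 features of 17399 genes. The embryos came from B6C3F1 hybrid mice whose mothers were 6 to 8 weeks old and had been given gonadotropins to ovulate. They were flushed from the oviduct on day 2 of pregnancy and cultured for 72 hours, to the blastocyst of day 5, with 400 nM of a synthetic RNA. The mimic group (n = 3 arrays) received a miR-30d mimic, a stand-in for one of the maternal microRNAs that, per the study's title, the endometrium secretes. The scramble group (n = 3 arrays) received a control RNA of scrambled sequence tagged with Alexa 488, a fluorescent dye. With 30 embryos for each condition, whole blastocysts were lysed, and 50 ng of total RNA was labelled with Cy3 for each array. Arrays of untreated embryos were not analysed here, and the dye is named for the control only, so an effect of the dye cannot be told apart from one of the mimic.

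In the inner cell mass, FGF signalling through the MAP kinase cascade raises Gata6 in cells that will become primitive endoderm, while cells that keep Nanog become epiblast. Gata6 is followed by the receptor Pdgfra and by Sox17, Gata4 and Sox7, which consolidate the fate as the cells sort to the surface facing the cavity. After implantation the layer gives rise to visceral endoderm, where Foxa2, Hnf4a and Otx2 act, and to parietal endoderm, which lays down a thick basement membrane.

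Markers of the blastocyst were read on Cdx2, Krt8, Krt18, Nanog, Pou5f1 and Gata6, the last also a member. All 6 lay above the dim limit (a mean log2 signal of 7.16 over the 6 arrays), with means from 9.73 (Pou5f1) to 15.76 (Krt18). The limit leaves out only the lowest 25% of features, and 6 of 7 endothelial markers also passed it. Passing it therefore does not establish the identity of the samples. Scramble replicate 1 stood apart from the other arrays. Over the 154 genes with 10 features each, the median SD between features of the same gene was 0.43 log2 units on that array, 0.28 on mimic replicate 1 and 0.14 to 0.22 on the other 4. These 2 arrays also held the fewest distinct values, 2108 and 2683 against 4410 to 5979. The difference of each regulator is therefore given with and without scramble replicate 1, as are the differences and list medians of other genes that it moved by over 1.5 times. With 3 arrays a group the precision is limited by their number, and a typical feature had a standard error of 0.251 log2 units (median over all features). In whole embryos, fewer cells of a lineage and less RNA per cell cannot be told apart.

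Most of the regulators lay higher in the mimic group, but none passed the test over the whole table. Of the 19 features 17 were higher and 2 lower with the mimic. By the mean of each gene's features 7 genes were higher and 1, Gata6, was lower. The median of the 8 log2 differences (mimic minus scramble) was 0.38, beside 0.02 over all 17399 genes, of which 53.5% were higher. That median of 0.38 dropped to 0.23 with scramble replicate 1 left out (all genes 0.00) and to 0.17 with both arrays numbered 1 left out (all genes 0.03), and leaving out the other arrays gave 0.34 to 0.50. No member feature had an adjusted p under 0.05 by limma with Benjamini-Hochberg adjustment over all features, where 0 of 24769 (0%) did in either direction. At an unadjusted p under 0.05 there was 1 member feature, that of Otx2, on the higher side, where 442 of all features (1.78%) lay, and 0 on the lower side, where 328 (1.32%) lay. Every mimic array lay above every scramble array at 3 member features, that of Otx2 and both of Foxa2, as at 5.86% of all features, and the reverse order was seen at 0 members and at 3.94% of all features. These counts moved with single arrays. Without scramble replicate 2, every mimic array lay above at 10 member features, beside 15.2% of all features, and 5 had an unadjusted p under 0.05, beside 5.33%. The 10 were features of Sox17, Pdgfra, Foxa2 and Otx2 only, and the 5 were of Sox17, Pdgfra and Otx2. Features of the same gene are not independent, so these are not counts of genes. Without mimic replicate 3, the counts were 8, beside 9.13%, and 3, beside 2.23%.

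**Figure D1:**
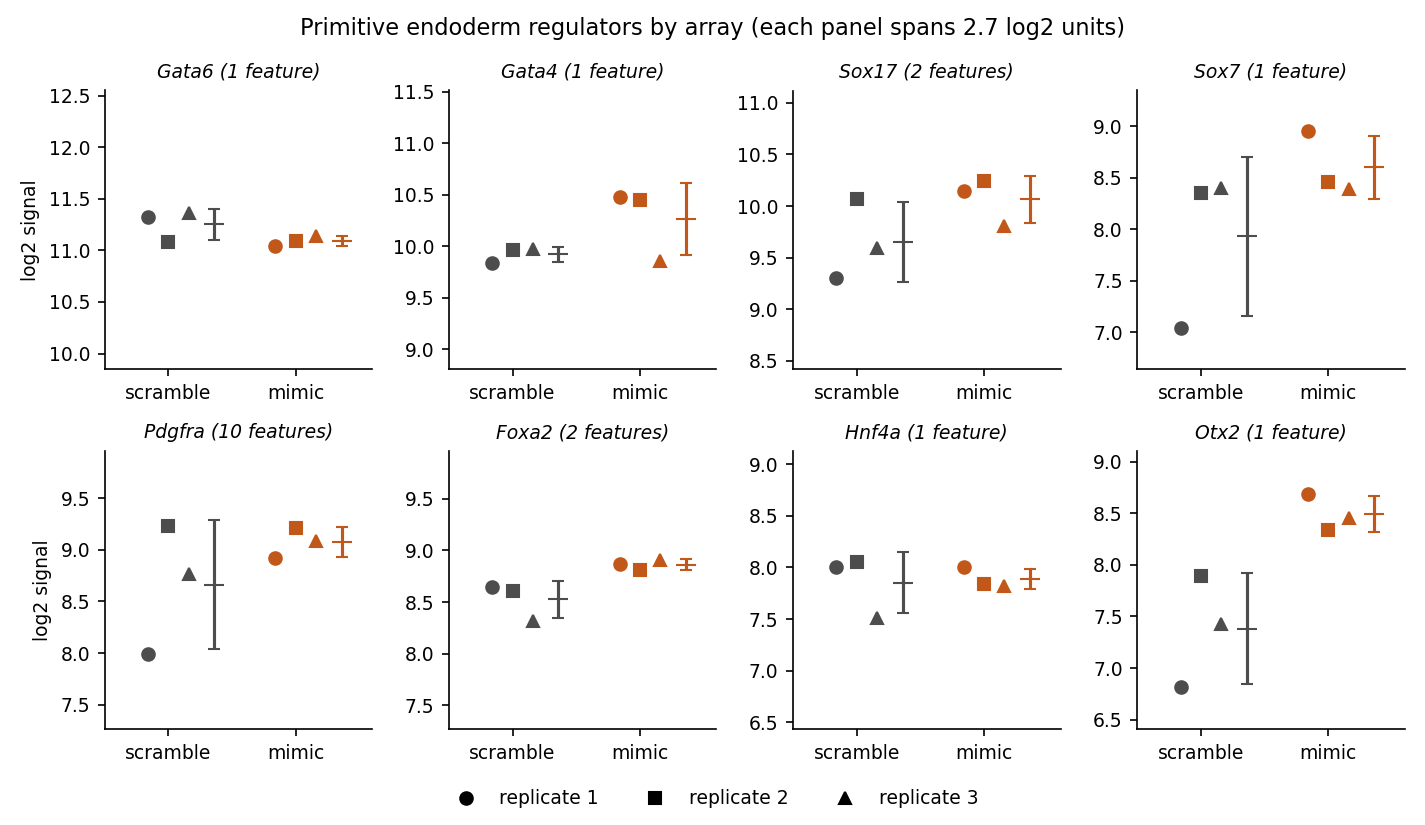
Log2 signal of the 8 regulators on each of the 6 arrays (mean of a gene's features where it has several), with the group mean and SD at the right of each group (n = 3); every panel spans the same number of log2 units but has its own centre. The mimic arrays lie above all scramble arrays for Otx2 and Foxa2, and scramble replicate 1 lies lowest for Gata4, Sox17, Sox7, Pdgfra and Otx2.

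Same-numbered arrays were also fitted as pairs, with the replicate number as a block. In that fit 2 member features had an unadjusted p under 0.05 on the higher side, that of Otx2 and the second of Sox17, where 1017 of all features (4.11%) did. Their adjusted p-values in that limma fit were 0.62 and 0.686. The smallest adjusted p of a member with the replicate block was 0.62, and 1 of 24769 features (0.00404%), not a member, had an adjusted p under 0.05. By pairs, the mimic array lay above its scramble partner in 3 of 3 pairs for Sox17, Foxa2 and Otx2, in 2 of 3 for Gata4, Sox7 and Pdgfra, and in 1 of 3 for Gata6 and Hnf4a.

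Gata6 encodes the zinc finger factor that starts the primitive endoderm programme. Its feature read 11.32, 11.08 and 11.36 log2 units in the scramble group and 11.04, 11.09 and 11.14 in the mimic group. All arrays lay within a narrow band, and the groups overlapped through scramble replicate 2. The log2 difference was -0.16 (SE 0.13, 95% interval -0.46 to 0.13, limma adjusted p = 0.979 over all features, exact permutation p = 0.3, two-sided). An exact test of 3 arrays against 3 cannot go below 0.1. Gata6 was the only regulator lower by its gene mean (Hnf4a was also below 0 after quantile normalization), and its log2 difference stayed negative with each array left out, from -0.25 (scramble replicate 2) to -0.11 (scramble replicate 3), and was -0.13 with scramble replicate 1 left out.

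Gata4, its relative in the GATA family, is turned on later and marks the committed lineage. The 3 scramble arrays read 9.84, 9.96 and 9.97, and the mimic arrays 10.48, 10.45 and 9.86. Mimic replicates 1 and 2 were high and mimic replicate 3 lay among the scramble arrays. The log2 difference was 0.34 (SE 0.19, interval -0.09 to 0.78, limma adjusted p = 0.979, exact permutation p = 0.3). Leaving out mimic replicate 3 gave 0.54, mimic replicate 1 gave 0.24 and scramble replicate 1 gave 0.30. The 2 GATA factors thus lay on opposite sides of 0, and neither interval excluded it. The difference between them was not tested.

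Sox17, an SRY-box factor needed for the maintenance of primitive endoderm, had 2 features. The first read 8.99, 9.95 and 9.36 in the scramble group and 9.95, 10.02 and 9.65 in the mimic group. The second read 9.61, 10.18 and 9.81 in the scramble group and 10.35, 10.47 and 9.98 in the mimic group. Both features ordered the arrays alike, with scramble replicate 1 lowest, mimic replicate 2 highest and the groups overlapping because scramble replicate 2 was high. The log2 differences were 0.44 (SE 0.25) and 0.40 (SE 0.20), with limma adjusted p = 0.979 for each and an exact permutation p of 0.2 for each. Leaving out scramble replicate 1 gave 0.22 and 0.27, and leaving out scramble replicate 2 gave 0.70 and 0.55.

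Sox7 belongs to the same SOXF subfamily and is expressed after Sox17. It read 7.04, 8.35 and 8.40 in the scramble group and 8.95, 8.46 and 8.39 in the mimic group. Scramble replicate 1 lay below the dim limit, mimic replicate 1 was the highest, and the 4 arrays of replicates 2 and 3 were nearly level. The log2 difference of 0.67 (SE 0.41, limma adjusted p = 0.979, exact permutation p = 0.2) was 0.23 without scramble replicate 1 and 0.05 without both arrays numbered 1. By pairs the difference was 1.91 for replicate 1, 0.11 for replicate 2 and -0.01 for replicate 3.

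Pdgfra encodes the alpha receptor for platelet-derived growth factor, the usual surface marker of primitive endoderm precursors, and it was the most densely covered member, with 10 features. The mean of the 10 read 7.99, 9.23 and 8.77 in the scramble group and 8.92, 9.21 and 9.09 in the mimic group. The mimic arrays lay close together, and scramble replicate 1 was far below the other 5. The log2 difference of the gene mean was 0.41 (SE 0.31, interval -0.30 to 1.12, exact permutation p = 0.4), and over the single features it ran from -0.21 to 0.75, with 9 higher and 1 lower. On scramble replicate 1 the 10 features spread over 2.41 log2 units, from 7.16 to 9.57, while they spread over 0.52 to 0.90 on the other arrays. The features of this gene therefore did not give one level on that array. Without scramble replicate 1, the log2 difference of the gene mean was 0.07. In that setting 5 of the 10 features lay on each side of 0, and their median was 0.00, beside 0.47 with all arrays. Without both arrays numbered 1, 10 of 10 were higher, with a median of 0.13. The 10 features read the same gene in the same RNA and are not replicates of the treatment, and whether they carry the same probe sequence was not examined.

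**Figure D2:**
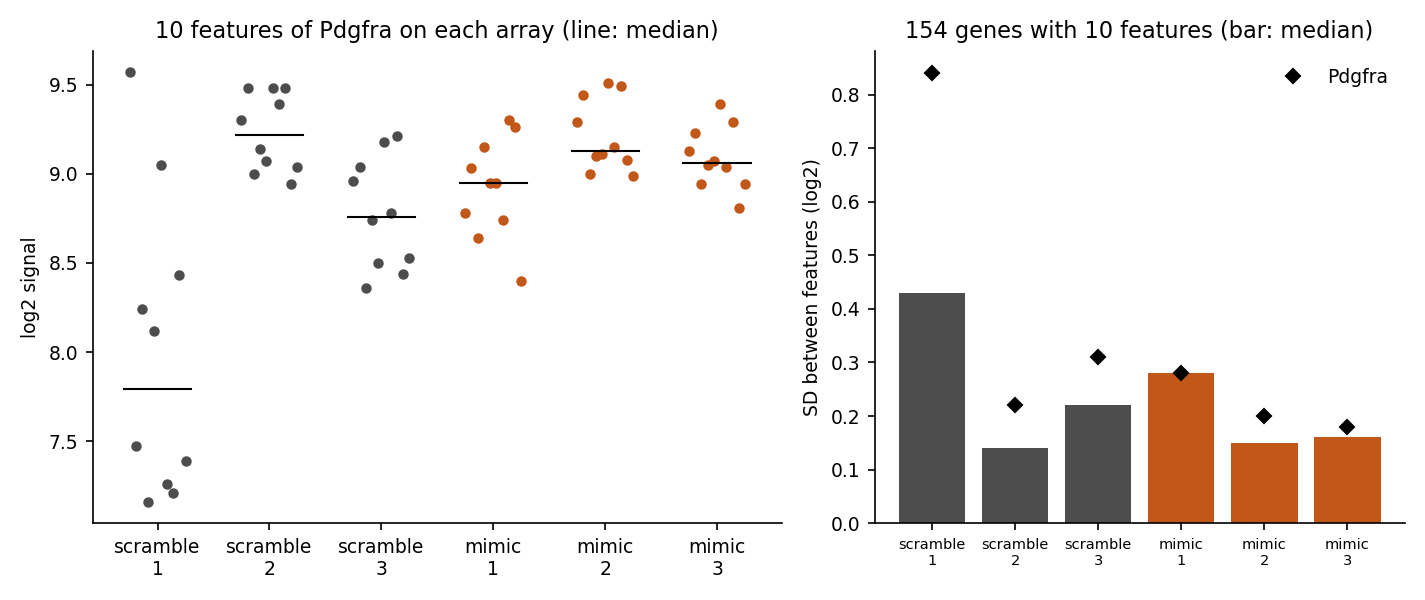
Left, log2 signal of the 10 Pdgfra features on each array, with the median as a line; right, the SD between the 10 features of a gene on each array, as the median over 154 genes (bars) and for Pdgfra (diamonds). The Pdgfra features spread most on scramble replicate 1, with an SD of 0.84, where the median gene also spread most, with 0.43.

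Foxa2, a forkhead factor of the endoderm, had 2 features. The first read 9.12, 9.19 and 8.80 in the scramble group and 9.41, 9.40 and 9.47 in the mimic group. The second read 8.18, 8.02 and 7.84 in the scramble group and 8.33, 8.22 and 8.36 in the mimic group. In both features the 3 mimic arrays were nearly level and lay above every scramble array, and scramble replicate 3 was the lowest. The log2 differences were 0.39 (SE 0.19, interval -0.05 to 0.82) and 0.29 (SE 0.27, interval -0.33 to 0.91). Each had a limma adjusted p of 0.979 and an exact permutation p of 0.1, the smallest that 3 against 3 allows. After quantile normalization or median centring of the arrays the groups of the second feature overlapped, and those of the first did not. Scramble replicate 1 was not low for this gene, and the log2 differences without it were 0.43 and 0.38.

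Hnf4a, a nuclear receptor that drives the liver-like metabolism of visceral endoderm, was close to level. It read 8.00, 8.05 and 7.51 in the scramble group and 8.00, 7.84 and 7.82 in the mimic group. The mimic arrays lay inside the range of the scramble arrays. The log2 difference was 0.03 (SE 0.29, interval -0.63 to 0.69, limma adjusted p = 0.996, exact permutation p = 0.9). Leaving out scramble replicate 3 gave -0.14, leaving out scramble replicate 2 gave 0.13, leaving out scramble replicate 1 gave 0.11, and quantile normalization gave -0.0058.

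Otx2, a homeodomain factor of epiblast and visceral endoderm, had the largest difference among the 8 regulators. Its feature read 6.82, 7.89 and 7.43 in the scramble group and 8.69, 8.34 and 8.45 in the mimic group. Every mimic array lay above every scramble array, and scramble replicate 1, below the dim limit, was the lowest. The means were 7.38 ± 0.53 and 8.49 ± 0.18 (SD, n = 3 each), which lie 1.11 log2 units apart (SE 0.35, interval 0.33 to 1.90), or 2.16-fold. Its scramble arrays lay around the dim limit of 7.16, where no detection reading was at hand, so the size of the fold is uncertain and may be understated or overstated. The unadjusted limma p was 0.0107, the adjusted p over all features 0.979 and the exact permutation p 0.1, so the difference did not pass. Left-out arrays moved it between 0.83 (scramble replicate 1 left out) and 1.37 (scramble replicate 2 left out). With both arrays numbered 1 left out it was 0.73. By pairs it was 1.87, 0.45 and 1.01 for replicates 1, 2 and 3. Otx2 is also a gene of the epiblast as it leaves the naive state, and in RNA of whole blastocysts the lineage that carried the signal cannot be told apart.

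**Figure D3:**
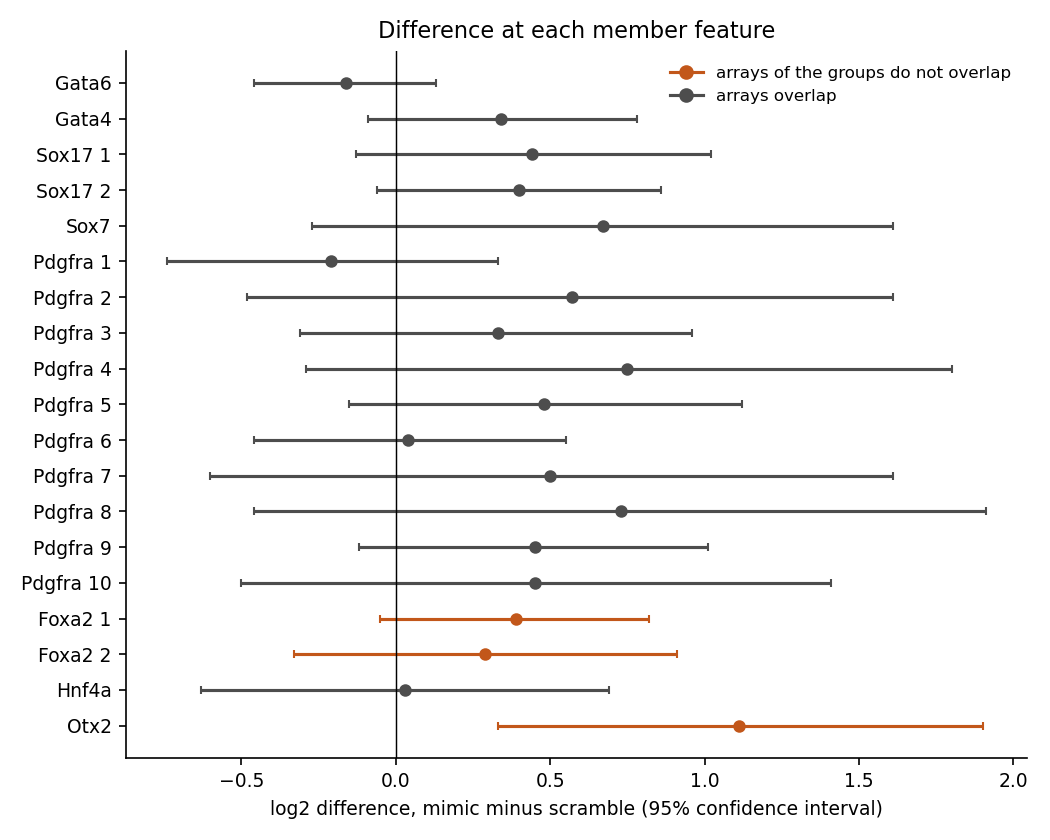
Log2 difference (mimic minus scramble) at each of the 19 member features with its 95% interval from limma, coloured by whether the 3 mimic arrays all lie above the 3 scramble arrays; numbers after a gene name count its features. The interval of Otx2, from 0.33 to 1.90, does not include 0, and every other interval does.

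**Figure D4:**
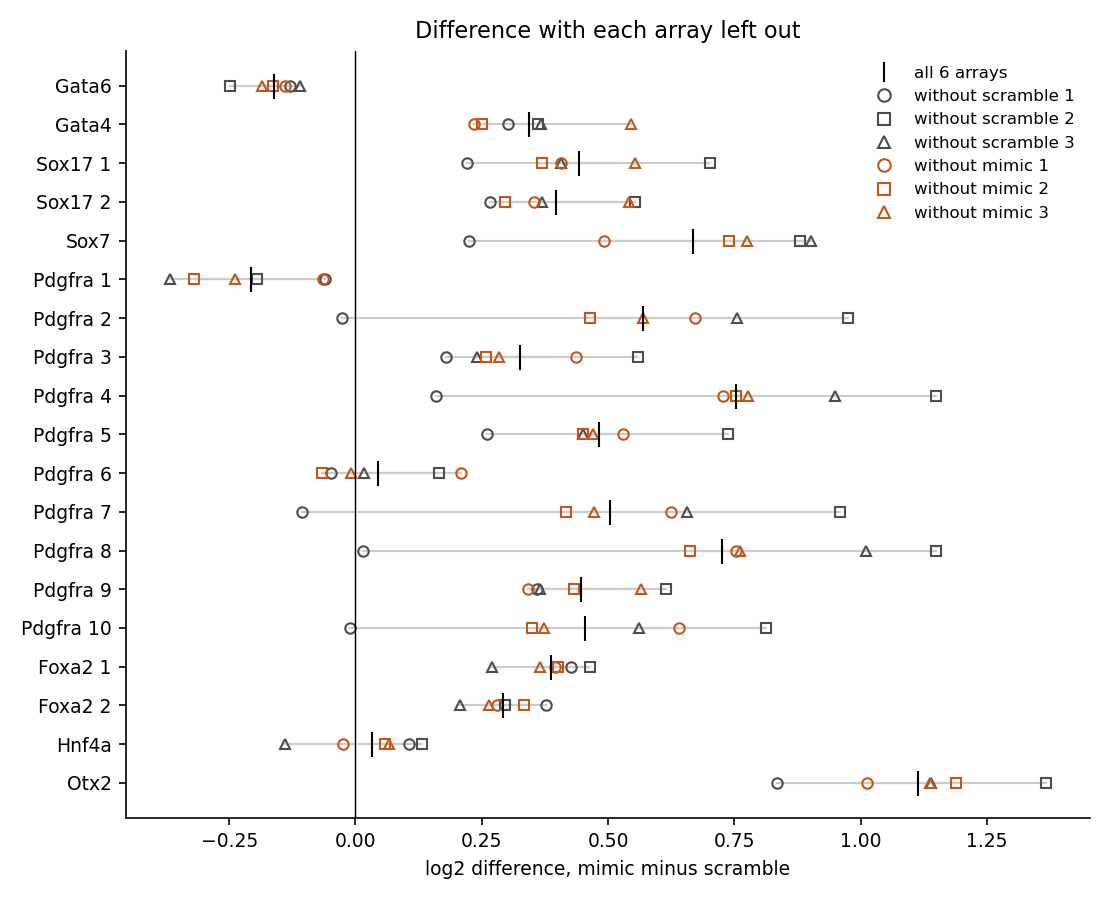
Log2 difference (mimic minus scramble) at each member feature with all 6 arrays (bar) and with each array left out in turn (open symbols). Otx2 stays between 0.83 and 1.37, while several Pdgfra features move to about 0 without scramble replicate 1.

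Promoter windows show where these regulators could meet one another, because GATA, SOX, FOX and OTX factors bind short, known motifs. RefSeq windows of GRCm38.p6, from 250 bases before to 50 bases after the gene start (the start farthest upstream), were at hand for 4 of the 8 genes. Otx2 (chr14:48667595-48667894, minus strand) and Foxa2 (chr2:148046920-148047219, minus strand) are printed because their groups did not overlap. Hnf4a (chr2:163506607-163506906, plus strand), with a difference close to 0, is printed for comparison. Otx2 had 4 windows, Foxa2 3 and Hnf4a 2, and matches are described for this 1 window of each only. Capitals mark matches, on either strand, to motifs of these families. The GATA motif was searched as AGATAA, also as TGATAA, further as AGATAG and lastly as TGATAG. The OTX motif was TAATCC, the FOX motif was TGTTTA and the SOX motif was ACAAT.
Otx2: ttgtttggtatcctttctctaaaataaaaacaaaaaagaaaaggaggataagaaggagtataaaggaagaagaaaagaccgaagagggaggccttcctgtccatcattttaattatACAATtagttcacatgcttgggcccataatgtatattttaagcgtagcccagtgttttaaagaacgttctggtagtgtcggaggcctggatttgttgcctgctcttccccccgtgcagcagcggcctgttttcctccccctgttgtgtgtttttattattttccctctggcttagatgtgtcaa
Foxa2: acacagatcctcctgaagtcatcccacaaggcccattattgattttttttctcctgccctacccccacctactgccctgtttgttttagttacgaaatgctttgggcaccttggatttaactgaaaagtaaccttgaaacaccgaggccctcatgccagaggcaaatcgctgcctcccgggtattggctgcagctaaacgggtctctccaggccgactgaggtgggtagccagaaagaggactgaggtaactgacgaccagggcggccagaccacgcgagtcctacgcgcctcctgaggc
Hnf4a: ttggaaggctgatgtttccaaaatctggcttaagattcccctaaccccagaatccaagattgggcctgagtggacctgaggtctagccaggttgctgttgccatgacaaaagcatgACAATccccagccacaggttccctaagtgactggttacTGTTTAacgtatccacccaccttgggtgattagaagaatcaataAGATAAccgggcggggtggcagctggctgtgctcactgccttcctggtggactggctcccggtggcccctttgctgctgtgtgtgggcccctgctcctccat
Otx2 held 1 match, the SOX letters at -134 from the start, and Foxa2 held 0. Hnf4a held 3, with the SOX letters at -134, the FOX letters at -96 and AGATAA at -52, and no match overlapped another. The window of Pdgfra, not printed, held 0. Among all 32851 windows of 300 bases, 29.8% held a GATA match, 7.06% an OTX match, 13.4% a FOX match and 31.0% a SOX match. A match is a run of letters, and binding was not measured.

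Profiles were compared as the root mean square (RMS) difference, in log2 units, between centred values over the 6 arrays. This is a description without a test, in which all genes share the same arrays. The values were not scaled, so the RMS follows each gene's spread as well as the shape of its profile. The 28 pairs of members were compared by the mean of each gene's features. The closest were Foxa2 with Hnf4a (0.183), Gata4 with Sox17 (0.216) and Sox17 with Pdgfra (0.218). The farthest were Gata6 with Otx2 (0.751), whose SDs over the 6 arrays were 0.13 and 0.71. The order of the pairs therefore does not show whether the regulators share a shape. Against other genes, the member and the gene were each taken by the feature with the highest mean. For members with several features, the 2 kinds of value are therefore not comparable. Among all other genes that varied at least as much as the member, the nearest to Otx2 was Cggbp1 (0.0785). It read 7.03, 8.35 and 7.70 in the scramble group and 8.99, 8.68 and 8.81 in the mimic group. The nearest to Sox7 was Aldoc (0.0728), to Sox17 Pld2 (0.0806), to Foxa2 Krt1 (0.0487) and to Gata4 Gpr1 (0.111). For Gata6 it was Col8a1 (0.0365), for Pdgfra Tgoln1 (0.0282) and for Hnf4a Evi5 (0.0476). The Pdgfra feature used here was the sixth, which was lowest on mimic replicate 1, while the gene mean was lowest on scramble replicate 1.

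Other genes of the lineage, taken by the feature with the highest mean, gave no common direction. Of 23 further primitive endoderm genes 14 were higher and 9 lower (median 0.11), and 3 in each direction had an unadjusted p under 0.05, beside 1.68% higher and 1.51% lower among all genes. Cubn, an endocytic receptor, read 10.85, 11.33 and 11.24 in the scramble group and 11.72, 11.77 and 11.49 in the mimic group. Dab2, the adaptor of such receptors, read 10.86, 11.10 and 10.83 against 10.33, 10.49 and 10.57. Both genes separated the groups, in opposite directions (0.52 for Cubn, -0.47 for Dab2, limma adjusted p = 0.979 for each). Of all genes, 5.58% had every mimic array above every scramble array and 4.12% had the reverse. Aqp8, a water channel, differed by -0.47 and its groups overlapped. Leaving out scramble replicate 1 took the list's median to 0.01. Leaving out mimic replicate 2 took it to 0.00, with 10 genes on the higher side and 13 on the lower.

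Genes of the derivatives, some of them in the list before, were split as well. Of 14 visceral endoderm genes, the setting in which Foxa2, Hnf4a and Otx2 act, 6 were higher and 8 lower (median -0.13), with Hhex, a homeodomain factor, at -0.69 and Foxa1, the paralog of Foxa2, at -0.40 (-0.23 with scramble replicate 1 left out). The visceral median was -0.08 with scramble replicate 1 left out, and with scramble replicate 2 left out it was 0.00, with 7 genes on each side. Foxa1 read 7.75, 7.23 and 7.28 in the scramble group and 7.09, 7.01 and 6.97 in the mimic group, so it lay near the dim limit and was lower in the mimic arrays, where Foxa2 was higher. Of 14 parietal endoderm genes 10 were higher and 4 lower (median 0.16), among them the basement membrane genes Col4a1 at 0.45 and Lamb1 at 0.54, and Gata2 at -0.35. With scramble replicate 1 left out these were 0.27, 0.27 and -0.22. Leaving out scramble replicate 1 took the parietal median to 0.03, and leaving out mimic replicate 2 took it to 0.01. No gene of either list had an adjusted p under 0.05 by limma, and at an unadjusted p under 0.05 there were 2 visceral genes (Cubn higher and Hhex lower) and 0 parietal genes, beside 1.68% higher and 1.51% lower among all genes. Of 7 other paralogs of the regulators 2 were higher and 5 lower (median -0.09, and -0.01 with scramble replicate 1 left out; with mimic replicate 2 left out 4 were higher and 3 lower, median 0.01).

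Signals upstream of the regulators were mixed. Of 20 FGF and MAP kinase genes 13 were higher and 7 lower (median 0.09). Dusp6, a phosphatase that ERK activity induces, read 11.58, 11.63 and 11.88 in the scramble group and 12.04, 12.07 and 12.25 in the mimic group, and Etv5, another such target, differed by 0.44 (0.26 with scramble replicate 1 left out). Fgfr1, the receptor through which inner cell mass cells sense FGF4, read 10.53, 11.07 and 10.81 against 10.29, 10.44 and 10.27. The groups of Dusp6 (0.42) and Fgfr1 (-0.47) did not overlap, and neither passed (limma adjusted p = 0.979). Such separation was seen at 5.58% of all genes with the mimic above and at 4.12% with it below. Among the partners of Pdgfra, its ligand gene Pdgfa read 13.04, 13.31 and 13.20 in the scramble group and 13.40, 13.65 and 13.67 in the mimic group. This difference of 0.39 (limma adjusted p = 0.979) was 0.32 without scramble replicate 1. Pdgfc was at 0.29 (0.05 without scramble replicate 1) and Pdgfrb at -0.06 (0.03 without that array). The median of the 4 PDGF ligand and receptor genes fitted was 0.17, and 0.08 with scramble replicate 1 left out.

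The other lineages of the blastocyst were set beside them. Of 15 epiblast genes 9 were higher and 6 lower (median 0.08). With scramble replicate 1 left out 8 were higher and 7 lower (median 0.01), and with both arrays numbered 1 left out 7 were higher and 8 lower (median 0.00). Nanog, the counterpart of Gata6 in the fate choice, read 10.77, 10.17 and 10.39 in the scramble group and 10.11, 10.13 and 10.07 in the mimic group. Every mimic array of Nanog lay below the scramble arrays, as at 4.12% of all genes. Its log2 difference was -0.34 (-0.18 without scramble replicate 1, limma adjusted p = 0.979). Gata6 and Nanog were thus both lower in the mimic mean. Tfcp2l1 was at -0.26 and Utf1 at 0.35, and at -0.13 and 0.23 with scramble replicate 1 left out. Of 15 trophectoderm genes 6 were higher and 9 lower (median -0.05, but -0.11 without scramble replicate 1, 0.06 without scramble replicate 3 and 0.07 without mimic replicate 1). Cdx2, also read as a marker of the blastocyst, was among the lower genes, with a log2 difference of -0.62, and its groups overlapped. Plac1 (0.59), Hand1 (1.07) and Tfap2c (0.43), genes of the placental lineage, had unadjusted limma p-values of 0.00911, 0.0283 and 0.0404 and did not pass after adjustment.

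**Figure D5:**
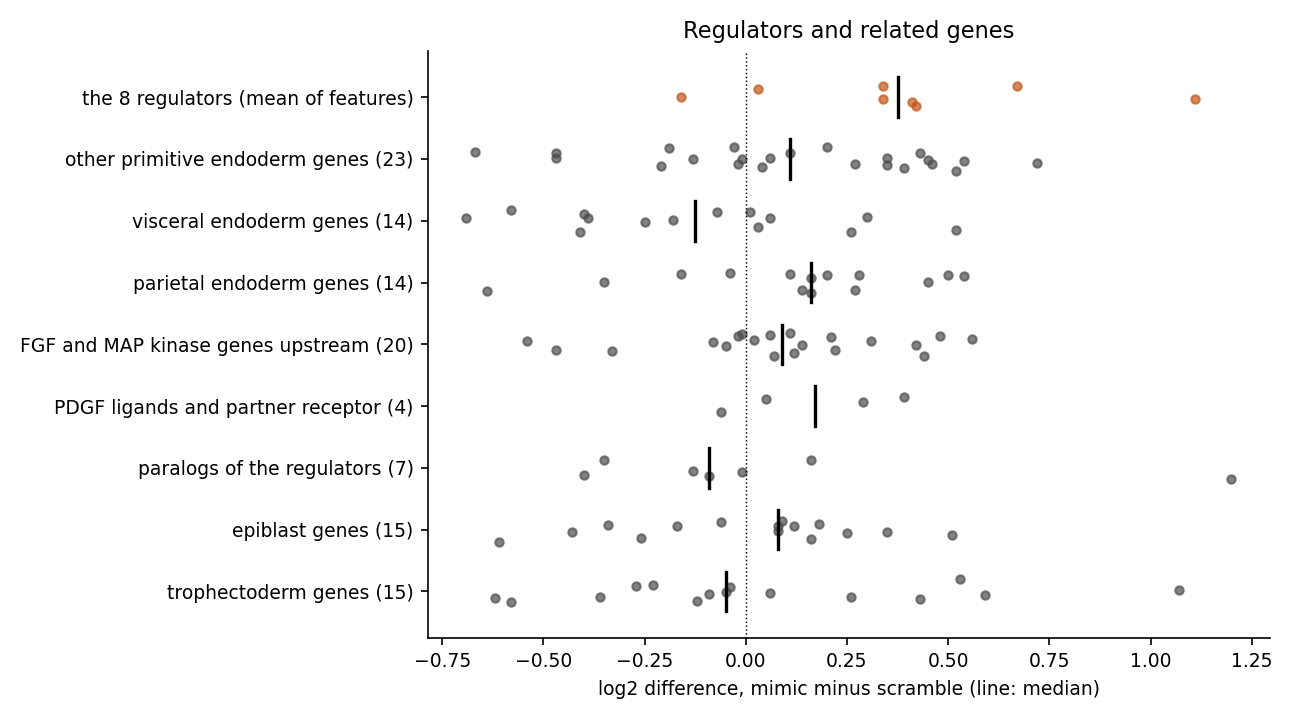
Log2 difference (mimic minus scramble) of the 8 regulators, by the mean of their features, and of the genes of each related list, by the feature with the highest mean; points are genes, the vertical bars are medians and the number fitted stands in parentheses. The median of the regulators is 0.38 with all arrays, 0.23 with scramble replicate 1 left out and 0.17 with both arrays numbered 1 left out; those of the other lists, with all arrays, run from -0.13 to 0.17.

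Several regulators are also expressed outside the embryo, Sox7 and Sox17 in endothelium and Pdgfra in stroma, so markers of such cells were read on the same arrays. For stroma 2 of 6 markers lay above the dim limit, and their summed linear signal was 819 to 928 in the scramble group and 841 to 883 in the mimic group, with Col1a1, Col1a2, Dcn and Lum below the limit. For endothelium 6 of 7 lay above it, summing to 1998 to 3842 and to 1918 to 6224, with Kdr the largest part on 5 arrays and Cdh5 on mimic replicate 1. Pecam1, Tie1, Emcn and Vwf stayed between 6.98 and 7.87 log2 units, and Tek lay below the limit. The high endothelial sums fell on the 2 arrays numbered 1, where Sox7 was lowest and highest, and their part in the result was not tested. Oviduct markers (3 of 6 above the limit) summed to 1627 to 2221 and 1386 to 2285, and Epcam, which the trophectoderm also expresses, held most of it. Cumulus and granulosa markers (2 of 5) summed to 5378 to 11401 and 5159 to 9729, nearly all from Foxl2, with Amh, Inha and Fshr below the limit. Blood markers (2 of 4) summed to 534 to 610 and 497 to 568, and sperm markers (3 of 4) to 578 to 685 and 568 to 635. The part of these cells in the differences was not tested.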

How the data were processed

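The deposited table holds log2 signal of 45220 features on 6 Cy3 arrays, 1 per sample, grouped by sample title. Array medians ran from 7.366 to 7.376. The authors' array software and normalization were not given in the sources used here. The scale was read off the deposited values, and a change shared by most genes may not be visible. Per the labels, RNA had an integrity number above 9.0 and was amplified with T7 RNA polymerase. The titles say biological replicates, and do not name separate matings or days, so the p-values cover only the spread of these samples, which may be technical.

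Platform annotation named 33026 features with 1 symbol and 0 with several, and 12194 had none and were left out. Of the named features 32438 (98.2%) were updated by Entrez identifier through RefSeq (GRCm38.p6). Features with a mean in the lowest 25% were dropped. The groups were tested against each other with limma 3.58.1 in R 4.3.3 (trend, two-sided, Benjamini-Hochberg over all 24769 features, threshold 0.05), with exact permutation tests for single values. Each feature was tested on its own, and the mean of a gene's features was used where the text says so. The code was tested on simulated data. Python 3.11.15, pandas 2.3.3 and matplotlib 3.10.9 were used.

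Each array's deviation from its group mean was correlated with that of its same-numbered partner, giving 0.336, 0.352 and 0.209. All were over 0.1, so by the rule used the numbers were taken to pair the samples. This pairing is read from the data. Scramble replicate 2 with mimic replicate 3 gave 0.196 and scramble replicate 3 with mimic replicate 2 gave 0.129, also over 0.1. The rule therefore cannot tell partners from non-partners among replicates 2 and 3. With the replicate block the smallest adjusted p of a member was 0.62.

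The genes named are all 8 members, the 3 genes of each list with the smallest unadjusted p, and the gene nearest to each member in profile, beside markers of the blastocyst and of other cell types, which were read as levels. Cdx2 was also given as a difference. The members and lists were chosen with earlier results of these data known. Some genes of the lists were not analysed here. Alternatives were no filter, no trend, quantile normalization, median centring, 1 feature per gene, the block and each array left out.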

Additional observations from a re-analysis of the deposited data

How the results depend on the processing

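Over all features the count with an adjusted p under 0.05 was 0 under every alternative run except the replicate block, which gave 1. The number of member features with an unadjusted p under 0.05, 1 with all arrays, was 2 with the replicate block and 2 without both arrays numbered 1 (an alternative chosen after seeing the data), and ran from 1 to 5 with single arrays left out. The number whose groups did not overlap in either direction, 3 with all arrays, ran from 3 to 11 with single arrays left out, a check also added after seeing the data, and was 2 after quantile normalization and 2 after median centring, where the second Foxa2 feature dropped out. The shares of all features were 9.80% with all arrays, 9.93% and 9.89% after these scalings, and 15.7% to 23.9% with single arrays left out. Both highest counts came without scramble replicate 2 (share of all features without overlap 23.2%). Both include several features of the same gene, which are not independent. The second count was 8 with mimic replicate 3 left out (15.7%) and 5 with scramble replicate 3 left out (17.4%). Fewer arrays separate more readily by construction. Of the 19 member features 13 kept their sign under all 12 alternatives and 6 did not; 3 of the 12 (no filter, no trend and the block) cannot change a difference, which leaves 9. Those were 5 features of Pdgfra and Hnf4a. The first Pdgfra feature turned to 0.0825 without both arrays numbered 1. With single arrays left out, the second Pdgfra feature ran from -0.0257 to 0.98, the sixth from -0.0667 to 0.21, the seventh from -0.10 to 0.96 and the tenth from -0.0108 to 0.81. Hnf4a ran from -0.14 to 0.13 and was -0.0058 after quantile normalization. The cause was not tested. No member passed the adjusted threshold under an alternative (adjusted p from 0.62 to 1.0). The pairing changed no call of a member after adjustment. Without detection readings, values near 7.2, the median of unnamed features, have no known limit, which touches the lowest arrays of Sox7, Otx2 and Pdgfra.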

Other observations

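Foxa3, a forkhead paralog of Foxa2, read 10.60 on mimic replicate 1 and 7.16 to 7.53 on the other 5 arrays. Cdh5, an endothelial cadherin, likewise read 11.60 on mimic replicate 1 and 7.30 to 8.56 on the others. Kdr read 11.48 on scramble replicate 1 and 11.18 on mimic replicate 1, and 9.34 to 10.61 on the other 4. Of the 19 member features 13 had their lowest value on scramble replicate 1, where 33.9% of all features had theirs. Most of these 13 were features of Pdgfra, and features of the same gene are not independent.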
